A study of Mus musculus with 24 samples.

Results

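Igfbp4 and 7 genes typical of naive T cells (Ccr7, S1pr1, Il7r, Lef1, Tcf7, Satb1 and Bach2) were followed across 24 expression arrays of mouse CD4+ T cells. Each gene was read through every probe set, a group of short array probes for one transcript, that carried its symbol alone in the platform's gene table. This found 7 of the 8 genes, on 20 probe sets, among 18193 genes read in all: 6 probe sets for Igfbp4, 5 for Satb1, 3 for Bach2, 2 each for Lef1 and Il7r and 1 each for Ccr7 and S1pr1. Tcf7 was not analysed here. Igfbp4 was chosen from these data for its low level with I-BET-762, and the others were added with earlier results known, so that contrast is described for all 7 genes and not tested.

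The cells came from 2D2 mice on a C57BL/6 background, mice that are transgenic for a T cell receptor. The cells were primed for 48 h on plates coated with anti-CD3 and anti-CD28 under conditions that favour Th1 cells, and expanded for 2 days off the plates. Priming took place with the solvent DMSO, with the control compound Control-768, or with 0.25 or 0.5 µM I-BET-762, an inhibitor of the BET proteins that bind acetylated histones at active genes. RNA was taken from resting cells or from activated cells, restimulated through CD3 and CD28 for 4 h. Each of the 8 groups of state and compound had 3 arrays, which the design text calls biological replicates. The concentration of Control-768 and the presence of the compounds during restimulation are not given in the sources used here. All groups are cells that had been primed and expanded, so no array shows naive cells.

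Array medians lay between 37.3 and 44.3 intensity units, and 28.9% to 30.8% of values were under 16, the constant added before the log2 transform. Replicates correlated at 0.967 to 0.992 over all probe sets. Of 7 CD4 T cell markers all 7 averaged at least 64, with Cd4 at 702. Of 6 B cell markers 0 did, and of 7 myeloid markers 1. Of 2 CD8 T cell markers 2 did, with Cd8b1 at 553 and Cd8a at 81.9. Of 7 markers of dendritic cells and MHC class II 3 did, with H2-Ab1 at 1389, Cd74 at 109 and H2-Eb1 at 73.5. Of 4 NK cell markers 2 did, with Gzma at 571 and Klrk1 at 81.9. The part of these markers in the results was not tested. In bulk RNA, fewer cells of a type and less RNA per cell cannot be told apart. The arrays numbered 3 differed from those numbered 1 and 2 for several of these genes, as the values by array show.

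In a naive T cell the 7 naive T cell genes serve recirculation, survival and quiescence. CCR7 draws cells into lymph nodes and S1PR1 lets them out again, while IL-7 received through its receptor keeps them alive. TCF1, the product of Tcf7, and LEF1 read Wnt signals and hold T cell identity, SATB1 organises chromatin loops and BACH2 represses effector genes. IGFBP4 is a secreted protein that binds insulin-like growth factors and limits their access to the receptor, and its transcript is known as a marker of naive CD4 T cells. T cell receptor signals and effector differentiation are known to lower many of these genes.

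The sequences upstream of Igfbp4 and Il7r are shown because these were the genes whose value was lower with I-BET-762 than with Control-768 in 12 of 12 pairs of arrays of the same number. Each Control-768 array serves both concentrations, so the pairs are not independent. Each sequence is the 250 bases before the annotated start in RefSeq (build GRCm38.p6), 5′ to 3′ on the gene's own strand. Capitals mark matches on either strand to any of 5 motifs: CTTTGA (TCF/LEF), TGTTTAC (FOXO), CACCC (KLF), CACGTG (E-box) and GGAAGT (ETS).
Igfbp4, chr11:99040994-99041243, plus strand: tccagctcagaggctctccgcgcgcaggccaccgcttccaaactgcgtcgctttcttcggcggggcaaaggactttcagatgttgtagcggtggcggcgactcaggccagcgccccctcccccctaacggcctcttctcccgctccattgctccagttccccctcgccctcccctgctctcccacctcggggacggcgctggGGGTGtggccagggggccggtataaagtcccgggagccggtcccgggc
Il7r, chr15:9529877-9530126, minus strand: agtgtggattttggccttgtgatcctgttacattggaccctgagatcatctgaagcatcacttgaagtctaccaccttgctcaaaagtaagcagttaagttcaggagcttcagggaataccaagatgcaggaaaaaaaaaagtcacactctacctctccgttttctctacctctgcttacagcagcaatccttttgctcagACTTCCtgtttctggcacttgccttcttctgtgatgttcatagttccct
The Igfbp4 stretch is 69.2% G and C, and 89.6% of all promoters in the table have less. The Il7r stretch lies below the median of 52.4%, and 21.1% of promoters have less G and C than it. The single match upstream of Igfbp4 is the KLF motif and that upstream of Il7r the ETS motif, which occur in 52.0% and 19.7% of the same 250-base window of all 32851 promoter entries. TCF/LEF, E-box and FOXO motifs occur in 13.8%, 6.0% and 3.2% of them. Among the other genes, the Bach2 entry and 1 of 4 Lef1 entries hold the TCF/LEF motif. A match is a description of letters, and no binding was measured here.

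Igfbp4 stood lower at each concentration of I-BET-762 than in control cells, both resting and activated. In resting cells its brightest probe set read 2734, 2385 and 3550 with DMSO and 2790, 2205 and 2977 with Control-768. With 0.25 µM I-BET-762 it read 744, 689 and 610, and with 0.5 µM it read 222, 248 and 174. All 6 resting arrays with I-BET-762 lay below all 6 resting control arrays, and the concentrations did not overlap.

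In activated cells Igfbp4 read 1760, 1860 and 1525 with DMSO and 1946, 1829 and 1128 with Control-768. It read 553, 658 and 349 with 0.25 µM I-BET-762 and 193, 282 and 170 with 0.5 µM. The same order was present, again with no overlap between controls, 0.25 µM and 0.5 µM. Ordered by mean ± SD (n = 3), the groups ran from resting DMSO (2890 ± 598) and resting Control-768 (2657 ± 403) to activated DMSO (1715 ± 172) and activated Control-768 (1634 ± 442). Then came resting (681 ± 67.6) and activated cells (520 ± 157) with 0.25 µM, and last activated (215 ± 59.2) and resting cells (215 ± 38.0) with 0.5 µM. Neighbours overlapped within each of these 4 pairs and not between pairs.

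**Figure D1:**
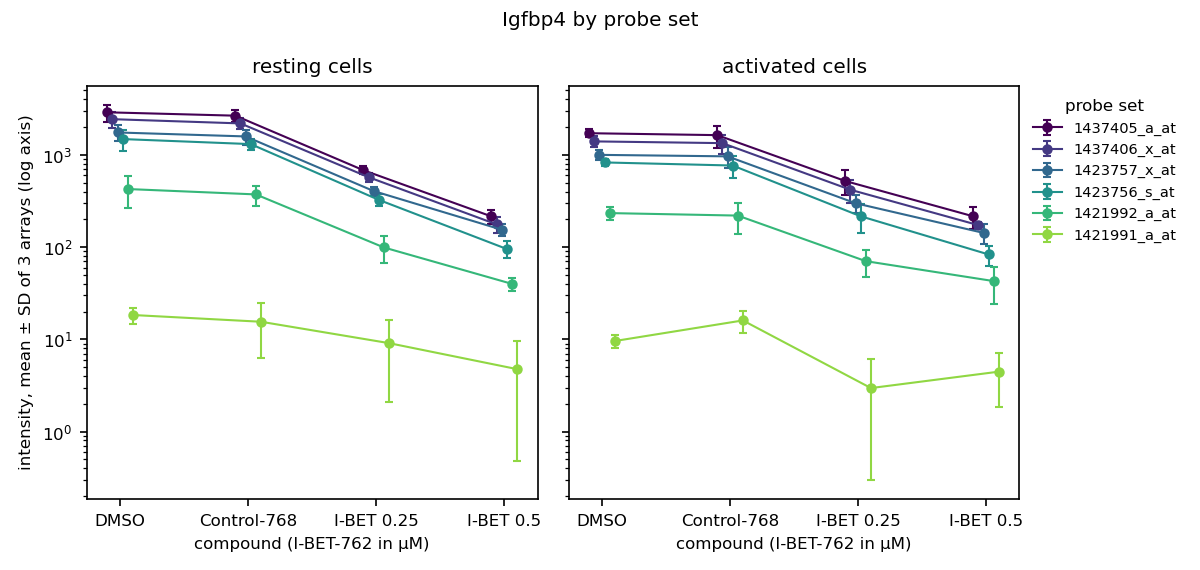
Intensity of the 6 Igfbp4 probe sets (log axis) by compound in resting and activated cells; points are means and bars SD of 3 arrays, with lower bars limited to 90 percent of the mean. The 5 brighter probe sets step down together from the controls to 0.25 µM and 0.5 µM I-BET-762, while the dimmest has group means from 2.96 to 18.3, the lowest of them with I-BET-762.

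Against Control-768 the log2 difference of Igfbp4 was -3.54 ± 0.24 (SE) with 0.5 µM in resting cells, 11.6-fold lower, and -2.83 ± 0.24 in activated cells, 7.09-fold lower. With 0.25 µM it was -1.93 and -1.63, or 3.82-fold and 3.09-fold lower. The differences from DMSO were of like size, at -3.65 and -2.93 with 0.5 µM and -2.04 and -1.73 with 0.25 µM. The step from 0.25 to 0.5 µM was -1.60 ± 0.24 in resting and -1.20 ± 0.24 in activated cells. These values describe the contrast that Igfbp4 was chosen by. Within it, Igfbp4 was the only one of the 7 genes with an adjusted p under 0.05 in limma. The shares of all 45037 probe sets called there were 0.753% with 0.5 µM in resting cells, 0.424% with 0.5 µM in activated cells, and 0.04% and 0.0355% with 0.25 µM. Over the brightest probe set of each gene the shares with 0.5 µM were 1.16% and 0.627%. Nothing is read from that count, since the gene was chosen by it. Arrays of the same number varied together within a state, and the fit did not group arrays by number. The SE and p of comparisons between compounds within a state can therefore be too large.

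The other probe sets of Igfbp4 gave the same pattern where they were bright. For 0.5 µM in resting cells, 4 of the other 5 had differences from -3.58 (1423756_s_at) to -2.77 (1421992_a_at). The exception, 1421991_a_at, averaged 10.1, below the added constant of 16, and differed by -0.58. Probe sets of a gene share its transcripts and are not replicates. Igfbp4 is also expressed by stromal cells, and the stromal markers Col1a1, Col3a1 and Pdgfrb averaged 6.32, 9.60 and 10.7. Only Pecam1 among 6 markers of stroma and endothelium averaged at least 64. In resting cells their summed level was 197 to 293 with DMSO, 201 to 272 with Control-768, 144 to 159 with 0.25 µM and 138 to 240 with 0.5 µM. In activated cells it was 256 to 416, 248 to 379, 194 to 267 and 189 to 272 in the same order. The sum was thus lower with I-BET-762, without overlap for 0.25 µM at rest and with overlap elsewhere, and its part in the Igfbp4 difference was not tested. Pecam1 averaged 164, against 19.2 for Cdh5 and 27.4 for Kdr, so the sum mainly follows Pecam1.

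Restimulation lowered Igfbp4 in control cells: the 6 activated control arrays (1128 to 1946) lay below the 6 resting ones (2205 to 3550). The log2 difference over both controls was -0.73 ± 0.17 (limma, adjusted p = 0.00249), and 5 of the 6 probe sets passed the threshold. The dim 1421991_a_at did not (-0.18 ± 0.15). Without the arrays numbered 3 the difference of the brightest probe set over both controls was -0.44 (limma, adjusted p = 0.0182). In cells primed with I-BET-762 the difference was -0.42 ± 0.24 with 0.25 µM and -0.01 ± 0.24 with 0.5 µM, where resting and activated arrays overlapped. The interaction of 0.5 µM with state was 0.71 ± 0.34 and that of 0.25 µM 0.30 ± 0.34, given here as values only. Over the alternative settings they ran from 0.38 to 0.85 and from 0.06 to 0.56.

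The trafficking receptor genes Ccr7 and S1pr1 did not step down with concentration as Igfbp4 did. In resting cells Ccr7 read 2164, 1663 and 2086 with DMSO, 2077, 1598 and 2302 with Control-768, 1112, 1145 and 1833 with 0.25 µM, and 979, 859 and 3672 with 0.5 µM. In activated cells it read 2886, 2631 and 1616, then 3253, 2227 and 1876, then 2565, 1915 and 2871, and then 2130, 2281 and 830 in the same order of groups. The resting 0.5 µM array numbered 3 was the highest of all 24 and the activated one the lowest, so the resting 0.5 µM group spans both sides of the resting controls and the activated one reaches below the activated controls. Against Control-768 the differences were -0.43 (0.5 µM) and -0.56 (0.25 µM) in resting cells and -0.58 and 0.02 in activated cells, each ± 0.43. Leaving out the arrays numbered 3 in every group gave 0.5 µM differences of -0.98 ± 0.21 in resting and -0.29 ± 0.21 in activated cells.

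S1pr1 read 1175, 705 and 1375 in resting DMSO cells and 1136, 679 and 1374 with Control-768. After restimulation it read 408, 469 and 137 with DMSO and 541, 413 and 155 with Control-768. No activated control array reached any resting control array. S1pr1 fell by 1.67 ± 0.38 on the log2 scale over both controls (3.18-fold, adjusted p = 0.00243), the widest change with state among the 7 genes. Without the arrays numbered 3, which were highest at rest and lowest after restimulation, it was -0.95 ± 0.29 (adjusted p = 0.0299). Over the alternative settings the adjusted p ran from 5.79e-08 to 0.0299 (limma). These settings include a block for the replicate number within each state. That block removes the spread between replicate numbers from the error, so its p does not measure that spread. The DMSO and Control-768 arrays of the same number lay close together and are counted as independent here, so the SE and p can be too small.

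With I-BET-762 the S1pr1 arrays overlapped those of the controls in either state. Resting cells read 1060, 502 and 1054 with 0.25 µM and 1535, 781 and 2119 with 0.5 µM. Activated cells read 389, 525 and 261, and 544, 737 and 183. The differences from Control-768 were 0.42 and 0.34 with 0.5 µM and -0.30 and 0.19 with 0.25 µM, each ± 0.54. With 0.5 µM the value was higher than in the Control-768 array of the same number in 6 of 6 pairs.

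**Figure D2:**
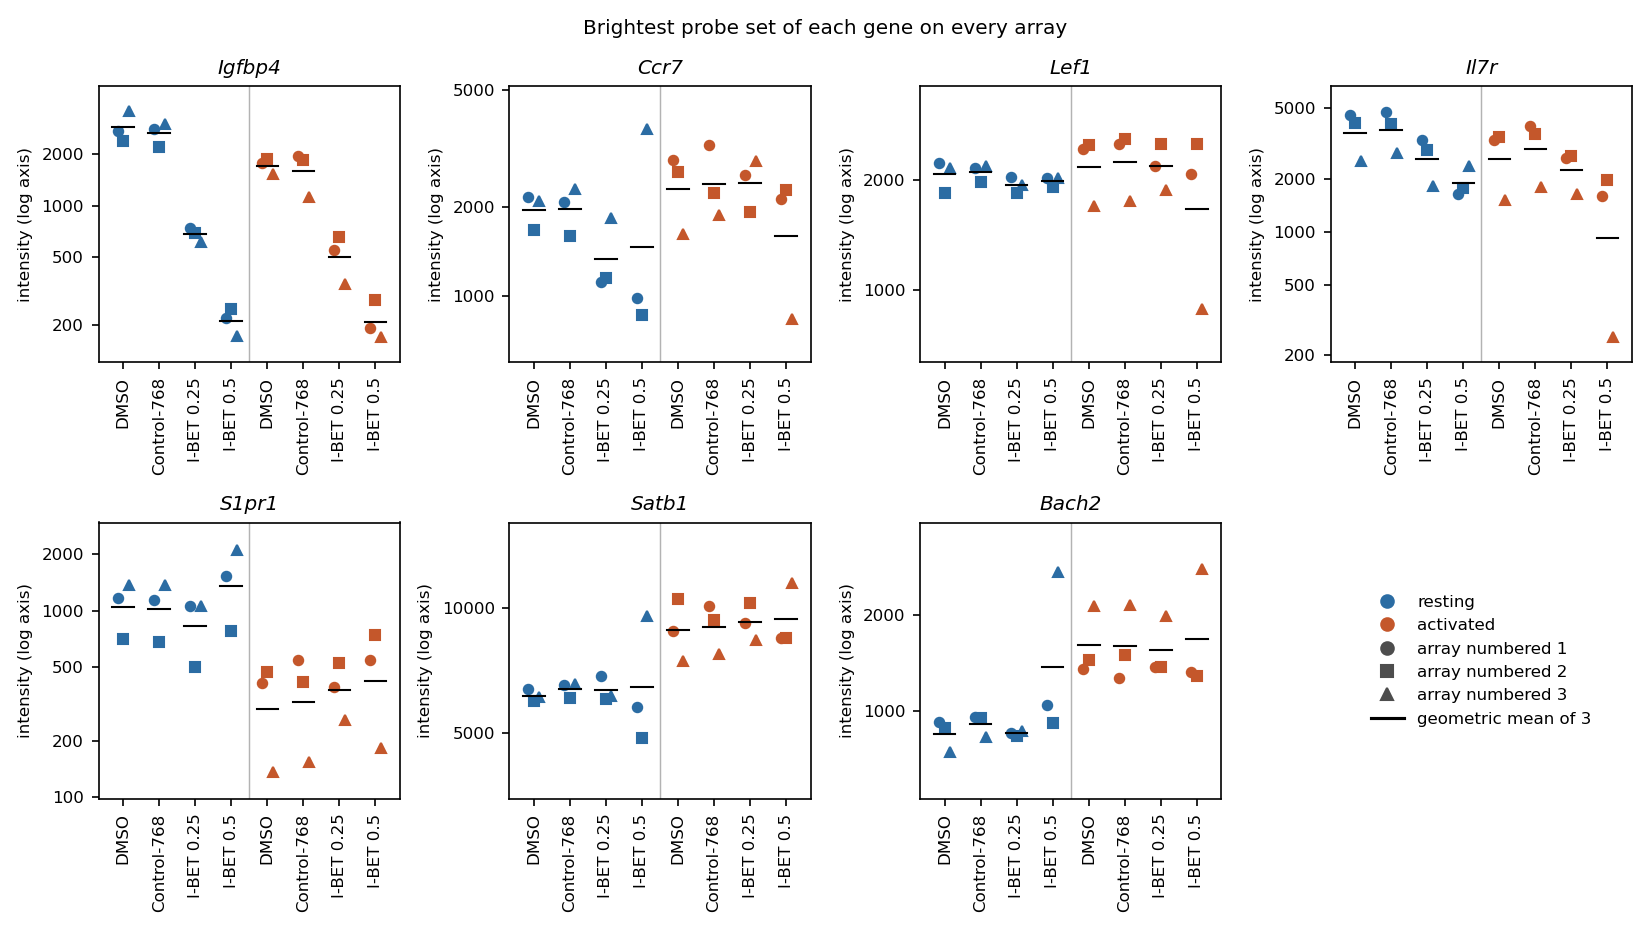
Intensity (log axis) of the brightest probe set of each of the 7 genes on all 24 arrays by state and compound; marker shape gives the replicate number and the bar the geometric mean of 3 arrays. Igfbp4 steps down with I-BET-762 in both states, and the 0.5 µM arrays numbered 3 stand apart for Ccr7, Bach2 and Satb1 at rest and for Ccr7, Lef1 and Il7r after restimulation.

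Il7r, the receptor chain for IL-7 and a survival gene of naive and memory cells, was also lower with I-BET-762 in every pair with Control-768. Against DMSO it was 0.11 higher on the log2 scale in the activated 0.25 µM array numbered 3. Resting cells read 4564, 4153 and 2519 with DMSO, 4783, 4073 and 2805 with Control-768, 3314, 2899 and 1812 with 0.25 µM, and 1634, 1776 and 2352 with 0.5 µM. Activated cells read 3295, 3442 and 1518, then 3983, 3567 and 1796, then 2615, 2672 and 1638, and then 1588, 1966 and 255. The array numbered 3 was the lowest of its group in 7 of the 8 groups, and every resting 0.5 µM array lay below every resting control array. The 0.5 µM array numbered 3 was lowest of all after restimulation.

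The differences of Il7r from Control-768 were -0.99 ± 0.53 in resting and -1.64 ± 0.53 in activated cells with 0.5 µM, and -0.55 and -0.38 with 0.25 µM. The probe set 1448576_at gave -1.17 and -1.62 with 0.5 µM. Differences between arrays of the same number with 0.5 µM were -1.54, -1.19 and -0.25 at rest and -1.32, -0.85 and -2.74 after restimulation. Arrays of the same number within a state varied together, so these SE, from a fit that did not group arrays by number, can be too large. Without the arrays numbered 3 the 0.5 µM differences of Il7r were -1.37 ± 0.13 at rest and -1.09 ± 0.13 after restimulation.

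For the brightest probe sets of the transcription and chromatin factor genes Lef1, Satb1 and Bach2, the differences of I-BET-762 from Control-768 lay between -0.43 and 0.59. Lef1 ran from 1845 to 2236 over all 12 resting arrays, and the compounds overlapped. In activated cells it read 2439, 2505 and 1697 with DMSO, 2506, 2587 and 1755 with Control-768, 2190, 2521 and 1886 with 0.25 µM, and 2077, 2512 and 889 with 0.5 µM. The lowest array was again the 0.5 µM array numbered 3. Its differences from Control-768 were -0.08 and -0.43 with 0.5 µM and -0.12 and -0.04 with 0.25 µM, each ± 0.26. The probe set 1421299_a_at gave -0.28 and -0.31 with 0.5 µM.

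Satb1 was the brightest of the 7 genes on these arrays, a comparison of probe sets and not of transcript amounts. It read 6383, 5979 and 6111 in resting DMSO cells, 6530, 6082 and 6579 with Control-768, 6860, 6063 and 6140 with 0.25 µM, and 5796, 4860 and 9579 with 0.5 µM. After restimulation it read 8826, 10527 and 7472, then 10152, 9382 and 7756, then 9224, 10281 and 8395, and then 8508, 8506 and 11511. Each activated control array lay above each resting control array. Satb1 rose by 0.51 ± 0.14 over both controls (1.43-fold, adjusted p = 0.00706). Of its other 4 probe sets 3 also passed, with 0.42 to 0.76, and 1439449_at gave 1.09 ± 0.49 and did not. The differences of the brightest probe set from Control-768 lay between -0.01 and 0.06 in all 4 comparisons with I-BET-762, each ± 0.19. With 0.5 µM at rest, its other probe sets differed from DMSO by 0.05 ± 0.15 (1416008_at) to 1.06 ± 0.69 (1439449_at).

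Bach2 read 927, 886 and 745 in resting DMSO cells, 961, 955 and 830 with Control-768, 857, 835 and 870 with 0.25 µM, and 1048, 918 and 2742 with 0.5 µM. After restimulation it read 1354, 1453 and 2137, then 1277, 1498 and 2160, then 1373, 1380 and 1991, and then 1332, 1293 and 2789. The array numbered 3 was the highest in each activated group, in the resting 0.5 µM group and, narrowly, in the resting 0.25 µM group. Bach2 rose with restimulation by 0.86 ± 0.23 over both controls (1.81-fold, adjusted p = 0.0084), with no overlap between the states. The probe set 1437667_a_at rose by 0.91 ± 0.24, and the dimmer 1445460_at gave 0.08 ± 0.14. The difference of Bach2 from Control-768 at rest was 0.59 ± 0.33 with 0.5 µM and 0.03 ± 0.11 without the arrays numbered 3. It was -0.09 with 0.25 µM at rest, and 0.07 and -0.04 in activated cells.

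**Figure D3:**
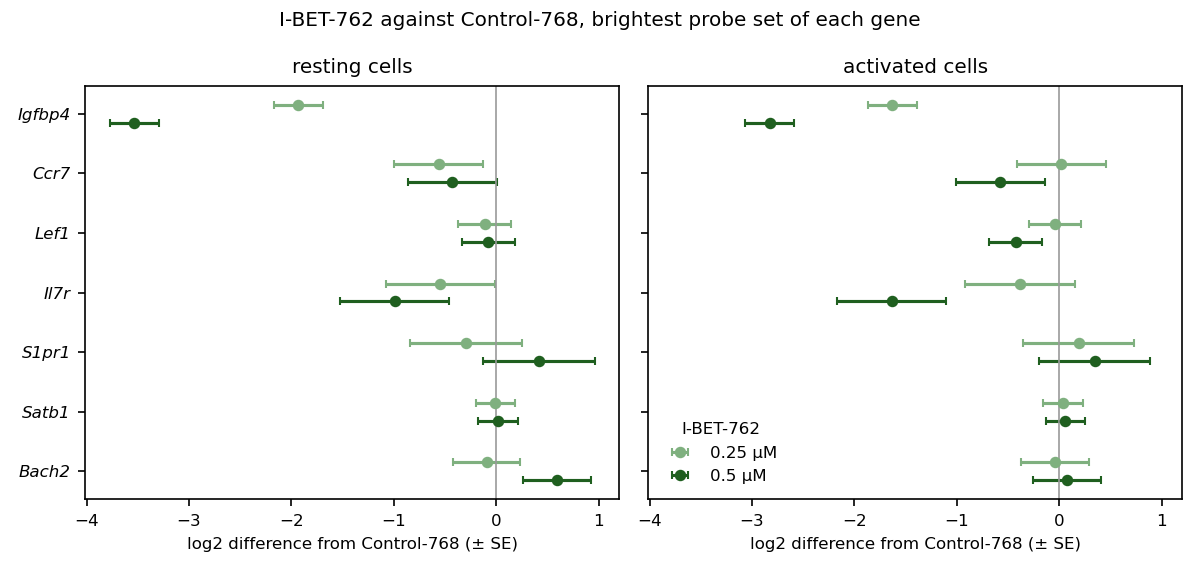
Log2 difference from Control-768 ± SE for the brightest probe set of each gene, with 0.25 and 0.5 µM I-BET-762 in resting and activated cells. Igfbp4 lies at -3.54 and -2.83 with 0.5 µM, followed by Il7r at -0.99 and -1.64, and Satb1 lies within 0.06 of 0.

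Restimulation of control cells called 4 of the 7 genes, with Igfbp4 and S1pr1 lower and Satb1 and Bach2 higher. The share called was 27.3% of all probe sets, and 31.6% of genes by their brightest probe set (13.8% higher and 17.8% lower). Ccr7 differed by 0.25 ± 0.31, Lef1 by 0.08 ± 0.18 and Il7r by -0.43 ± 0.38 (adjusted p = 0.62, 0.806 and 0.475, limma). The median of the 7 genes was 0.08, against 0.01 for all probe sets. The fit counts DMSO and Control-768 arrays of the same number as independent, though they varied together within a state. The SE and p over both controls can therefore be too small throughout. When the arrays numbered 3 were left out, 7 of the 7 genes were called, among 13193 probe sets in all. Ccr7 was then higher by 0.55 ± 0.15 (adjusted p = 0.0155), Lef1 higher by 0.29 ± 0.09 (adjusted p = 0.0368) and Il7r different by -0.30 ± 0.09 (adjusted p = 0.0338). Over all alternatives their adjusted p ran from these values up to 0.817, 1 and 0.745.

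In cells primed with 0.25 µM I-BET-762, restimulation called 0 of the 7 genes, where 10.5% of all probe sets were called and 10678 had an unadjusted p under 0.05. The differences were 0.55 ± 0.19 for Satb1 (limma, adjusted p = 0.0763), 0.85 ± 0.33 for Bach2 (0.11), 0.86 ± 0.43 for Ccr7 (0.241) and -1.10 ± 0.54 for S1pr1 (0.228). With the replicate number as a block within each state, limma called 9477 probe sets in all, against 4723 without it. The 3 genes that passed were S1pr1 (adjusted p = 0.000446), Satb1 (adjusted p = 0.0488) and Bach2 (adjusted p = 0.0289). That block removes the spread between replicate numbers in each state from the error, so these p values do not measure it. Without the arrays numbered 3 the genes called were Ccr7, Satb1 and Bach2. Over the alternative settings the probe sets called in all ran from 2260 to 9477. Nothing is read from these counts of genes.

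In cells primed with 0.5 µM, 1 of the 7 genes was called, where the share of all probe sets was 17.8%. S1pr1 fell by 1.66 ± 0.54 (adjusted p = 0.0393), which was -0.78 ± 0.41 without the arrays numbered 3 (adjusted p = 0.26, the range over alternatives being 5.81e-06 to 0.518). Satb1 differed by 0.54 ± 0.19 (adjusted p = 0.0568). The block within each state, again with the spread between replicate numbers removed from the error, called Il7r (-1.01 ± 0.33, adjusted p = 0.0323), S1pr1 and Satb1. Without the arrays numbered 3, Ccr7 was higher by 1.25 ± 0.21 (adjusted p = 0.00212), where it had been 0.13 ± 0.43 with them. Satb1 and Bach2 were called beside it. Over all probe sets 8018 were called in the main fit, 12095 with the block and 866 to 12095 over the alternative settings. Nothing is read from these counts of genes. The interaction of either concentration with state called 0 of the 6 tested genes and 0% of all probe sets, with 1620 and 1070 at an unadjusted p under 0.05.

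**Figure D4:**
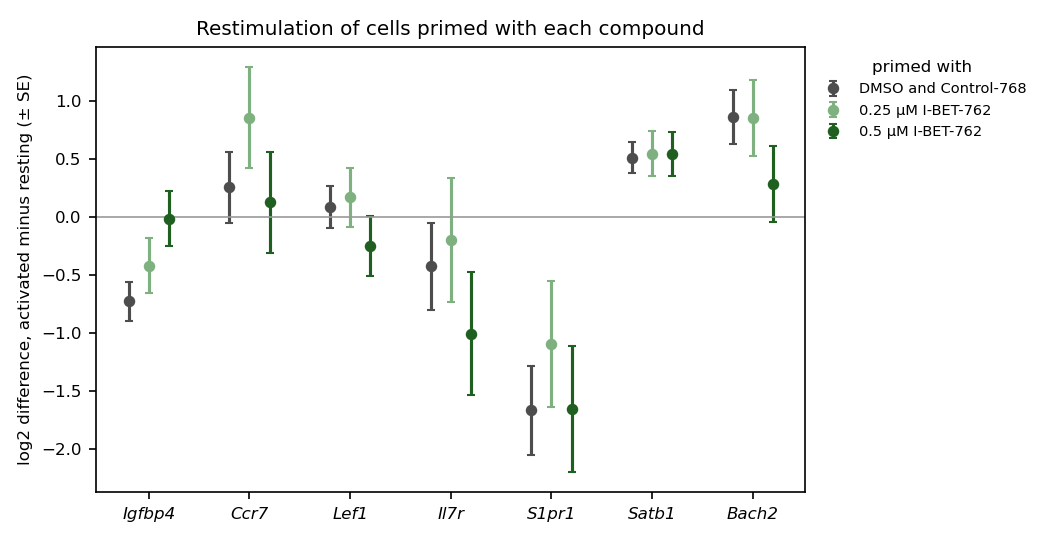
Log2 difference, activated minus resting, ± SE, for the 7 genes in cells primed with the controls (12 arrays) and with 0.25 or 0.5 µM I-BET-762 (6 arrays each). S1pr1 lies below 0 and Satb1 above 0 in all 3 kinds of cells, while Igfbp4 lies at -0.73 in the controls and -0.01 with 0.5 µM.

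Control-768 and DMSO were compared directly at matched states. The 7 differences lay between -0.11 and 0.10 in resting cells and between -0.10 and 0.19 in activated cells, and 0 genes were called in either state (adjusted p = 1 for each, limma). The share of all probe sets called was 0% in both, with 1125 and 896 at an unadjusted p under 0.05. The 95% interval for Igfbp4 was -0.61 to 0.39 at rest and -0.60 to 0.39 after restimulation. For Il7r it was wider, at -1.05 to 1.18 and -0.93 to 1.30.

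The step from 0.25 to 0.5 µM I-BET-762 was tested for the 6 genes other than Igfbp4. None of them was called in either state, where 0.0422% of probe sets at rest and 0.0111% after restimulation were called (limma), and 2769 and 1642 had an unadjusted p under 0.05. Igfbp4 itself was past the threshold at rest, which is a description. For Il7r the step was -0.45 (95% interval -1.56 to 0.67) at rest and -1.25 (-2.37 to -0.14) after restimulation. For Bach2 at rest it was 0.69 (-0.00 to 1.37), with 2742 in the array numbered 3.

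**Figure D5:**
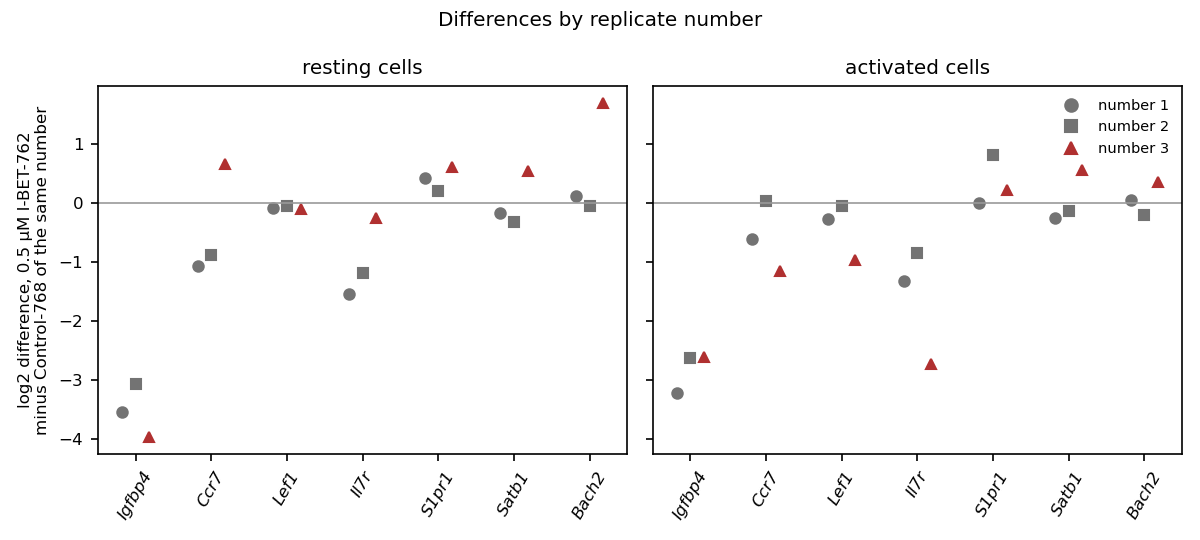
Log2 difference of each 0.5 µM I-BET-762 array from the Control-768 array of the same number, by gene and state. Igfbp4 lies between -3.98 and -2.62 in all 6 pairs, whereas number 3 (red) lies apart for Ccr7 and Bach2 at rest and for Il7r and Lef1 after restimulation.

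The genes whose level over the 24 arrays was most like that of Igfbp4 were Klk8 (Pearson r = 0.949), Nmi (0.940), Tesc (0.936), Nbdy (0.935) and Trat1 (0.931). They lead 9669 genes with a mean intensity of at least 64, and the arrays share groups, compounds and replicate numbers. Within the 12 resting arrays their r ran from 0.918 to 0.959, and within the 12 activated arrays from 0.943 to 0.974. With 0.5 µM I-BET-762 at rest the differences from Control-768 were -2.74 ± 0.23 for Trat1, an adaptor of the T cell receptor complex, and -1.74 ± 0.14 for Klk8, a secreted serine protease. They were narrower for Nbdy (-1.19 ± 0.14), Tesc (-0.70 ± 0.09) and Nmi (-0.68 ± 0.12), against -3.54 for Igfbp4. The other members were farther from Igfbp4: Il7r had r = 0.666 (rank 215), Lef1 0.370 (rank 1300), Ccr7 0.295 (rank 1889), S1pr1 0.06, Satb1 -0.20 and Bach2 -0.43.

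Igfbp4 and Ccr7 lie close together in the mouse genome, with Tns4 between them in the gene table. The measured neighbours differed less from Control-768 than Igfbp4 did. With 0.5 µM at rest and after restimulation Top2a on the other side differed by -0.09 and -0.27, each ± 0.17. Smarce1, a chromatin remodelling subunit beyond Ccr7, differed by 0.06 and 0.00. Rara, the retinoic acid receptor alpha gene, differed by -0.33 and -0.16. Tns4 differed by -0.70 and -0.29 at a mean intensity of 37.9, and Krt222 by 0.03 and -0.03. None of these 5 passed the threshold (adjusted p from 0.162 to 1, limma). Gm46294 and Gjd3 were not analysed here.

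Among other naive and quiescence genes, restimulation of control cells was followed by a fall of 14 of 24 and a rise of 2, with a median of -0.58 against -0.03 for all genes. Over all genes 17.8% fell and 13.8% rose. With 0.5 µM I-BET-762 against Control-768, 1.16% of all genes were called at rest and 0.627% after restimulation. Klf2, which drives S1pr1 transcription, fell by 3.24 ± 0.33 (adjusted p = 6.92e-07). Pik3ip1, an inhibitor of PI3 kinase, fell by 3.17 ± 0.29, while Slfn2, a quiescence factor, rose by 2.77 ± 0.22. With 0.5 µM I-BET-762 at rest 1 of the 24 passed, Klf3, which was 1.91 ± 0.28 higher than with Control-768 (adjusted p = 0.00078). This list and those below were drawn up with earlier results of these data known. Their p values against Control-768 are therefore a description. The median of the naive and quiescence list was 0.30 at rest and 0.11 after restimulation, against -0.00 and 0.00 for all genes, and 0 passed after restimulation. Without the arrays numbered 3, 4 passed at rest (Klf2 and Klf3 higher, Cnr2 and Tespa1 lower) and 3 after restimulation (Klf2, Klf3 and Cd27, all higher), where 809 and 588 of all probe sets were called.

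Of 20 genes of lymph node homing and egress, 4 rose and 8 fell with restimulation of control cells (median -0.13). Of all genes 13.8% rose and 17.8% fell. Cd69, whose product retains S1PR1 inside the cell, rose by 1.45 ± 0.17, and Gpr183, an oxysterol receptor, by 1.58 ± 0.17. Klf2 belongs to this list too. In the comparisons of 0.5 µM I-BET-762 with Control-768, 0 of the 20 were called in either state, with medians of 0.00 and 0.08. Klf2 and S1pr4 were called higher at rest, and Klf2 after restimulation, without the arrays numbered 3.

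Of 14 genes of IL-7 receptor signalling, 4 rose and 1 fell with restimulation, where 31.6% of all genes were called. Stat5a, a transcription factor downstream of the receptor, rose by 2.85 ± 0.18 and Gfi1, a repressor of Il7r, by 1.01 ± 0.10. Bcl2, the survival gene that IL-7 sustains, fell by 0.73 ± 0.12. With 0.5 µM I-BET-762, 0 of the 14 were called in either state, with medians of 0.15 and 0.11. When the arrays numbered 3 were left out, Socs3 was called higher at rest, and the count after restimulation was again 0.

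Of 18 genes of the IGF system, 1 rose with restimulation (Irs2, an adaptor of the receptors, 0.71 ± 0.14) and 2 fell (Insr by 0.97 ± 0.29 and Stc2 by 0.66 ± 0.18). The share called over all genes was 31.6%. With 0.5 µM at rest Igf2r, a receptor that clears IGF2, was 0.99 ± 0.20 higher than with Control-768 (adjusted p = 0.0163). Stc2, stanniocalcin 2, which inhibits a protease that cuts IGFBP4, differed by -1.14 ± 0.25 at rest (adjusted p = 0.0376), and differed by -1.39 ± 0.25 after restimulation (adjusted p = 0.0108). The list's medians were -0.13 and -0.10. Igf2r and Stc2 were called at rest without the arrays numbered 3, and Igf2r (higher), Irs2 and Stc2 (both lower) after restimulation.

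Of 16 partners of TCF and LEF factors, 2 rose with restimulation (Tle3 by 1.12 ± 0.10 and Apc by 0.79 ± 0.12) and 2 fell, among them Pygo2 by 0.33 ± 0.09. Here too 31.6% of all genes were called. Tle1, a corepressor that binds TCF and LEF factors, was the 1 member called with 0.5 µM, at -1.34 ± 0.26 in resting cells (adjusted p = 0.0143) and -1.25 ± 0.26 in activated cells (adjusted p = 0.0353). Tle4 (higher) and Bcl9 (lower) were called beside it at rest without the arrays numbered 3. Of 10 partners of BACH2 and SATB1, 4 rose with restimulation and 0 fell, where 13.8% of all genes rose and 17.8% fell. Mafg rose by 0.82 ± 0.10, Maff by 0.61 ± 0.15 and Chd4 by 0.40 ± 0.09. The small MAF proteins pair with BACH2 on DNA. With 0.5 µM, 0 of these 10 were called in either state.

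Of 12 factors of the effector programme, 5 rose and 1 fell with restimulation (median 0.59), where 13.8% of all genes rose and 17.8% fell. Zeb2 rose by 3.90 ± 0.25, Batf by 2.16 ± 0.14 and Tbx21, the Th1 factor T-bet, by 1.62 ± 0.10. With 0.5 µM I-BET-762 at rest Tbx21 was 0.97 ± 0.14 higher than with Control-768 (adjusted p = 0.000621), and 0 of the 12 were called after restimulation. Myc was called lower beside it at rest without the arrays numbered 3. Over all genes the shares called in these comparisons are the 31.6%, 1.16% and 0.627% given above, and the lists were drawn up with earlier results of these data known. Without the arrays numbered 3, the genes that rose and fell with restimulation of controls numbered 3 and 16 of the naive and quiescence list, 4 and 6 of homing and egress, 6 and 1 of IL-7 receptor signalling, 1 and 3 of the IGF system, 3 and 4 of the TCF and LEF partners, 4 and 2 of the BACH2 and SATB1 partners (Chd4 no longer among them) and 7 and 1 of the effector factors. No share of all genes is given for that setting, so nothing is read from these counts.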

How the data were processed

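The authors deposited linear intensities for 45101 Affymetrix probe sets; how they summarized and normalized these is not stated in the labels or the file. Per the labels' protocols, RNA was amplified for 2 rounds, which favours probes near a transcript's 3′ end. Array controls (64) were dropped. Of the other 45037, 34945 had 1 symbol in the platform's gene table, 932 several and 9160 none. Each gene was read by its probe set with the highest mean. Values were taken as log2(intensity + 16), which compresses dim genes, and fitted in limma 3.58.1 (R 4.3.3) as 8 group means over 24 arrays without a block. Benjamini-Hochberg adjustment covered all 45037 probe sets of a comparison, and a call is an adjusted p under 0.05. The fit was tested on simulated data with independent noise on each array, which does not cover arrays of the same number varying together. The number of arrays limits the precision.

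Arrays with the same replicate number in the labels deviated together within a state (36 pairs, r = 0.178 to 0.646), which pairs them there, but not in every pair across states (48 pairs, r = -0.03 to 0.242). The comparison over both controls counts DMSO and Control-768 arrays of the same number as independent, so its SE and p can be too small. Comparisons between compounds within a state hold the spread between replicate numbers in the error, so their SE, intervals and p can be too large. No arrays held identical values. The 8 genes and all lists were chosen with earlier results of these data known. Genes named from a list are up to 3 past the threshold with the smallest p. Promoters were from RefSeq (6 of 8 genes). Alternatives were other pseudocounts, quantile normalization, dim probe sets left out, 1 probe set per gene, only the groups compared, DMSO as control, replicate blocks and arrays left out.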

Additional observations from a re-analysis of the deposited data

How the results depend on the processing

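No alternative reversed a called value. Counts of the 7 genes called moved as follows. For restimulation after 0.5 µM I-BET-762 (1 gene) the count was 0 with pseudocount 1 and with only the groups compared, 2 with pseudocount 64, with dim probe sets left out and with 1 probe set per gene, 3 with the replicate block within each state and without the arrays numbered 3, and 2 (Ccr7 and Satb1) without both 0.5 µM arrays numbered 3, an alternative chosen after seeing the data. Leaving out 1 replicate gave 0 to 1. For restimulation after 0.25 µM (0 genes) it was 1 without dim probe sets (Satb1) and with the replicate block over both states (Bach2), 2 with only the groups compared, and 3 with the block within each state and without the arrays numbered 3. For restimulation of controls (4 genes) it was 7 without the arrays numbered 3. For the dose step it was 0 at rest (1 gene) with only the groups compared and without both 0.5 µM arrays numbered 3, with 0 to 1 on leaving out 1 replicate, and 1 in activated cells (0 genes) with the block within each state. Against Control-768 (1 gene each) it was 0 for 0.25 µM in either state with only the groups compared, with 0 to 1 in activated cells on leaving out 1 replicate. For 0.5 µM it was 3 at rest without the arrays numbered 3 (Igfbp4, Il7r and Ccr7). In activated cells it was 2 (Igfbp4 and Il7r) without them and with either replicate block. The counts for the dose step and against Control-768 include Igfbp4, which that contrast chose, and are a description. The block within each state changed no other call of these genes. The causes were not tested.

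Over all probe sets, calls ranged from 5999 to 15559 for restimulation of controls (12299 as reported), 2260 to 9477 after 0.25 µM (4723) and 866 to 12095 after 0.5 µM (8018). They ranged from 25 to 1344 (339) and 36 to 817 (191) for 0.5 µM against Control-768 at rest and after restimulation, 0 to 82 (18) and 2 to 90 (16) for 0.25 µM, 0 to 203 (19) and 0 to 44 (5) for the dose step, and 0 to 15 (0) for the 0.5 µM interaction. In each of these comparisons the highest count came from the block within each state, and in most the lowest came from fitting only the groups compared, which leaves fewer degrees of freedom. For restimulation of controls the lowest came from 1 probe set per gene, which tests fewer features. In comparisons of activated with resting cells, the block within each state removes the spread between replicate numbers from the error. Its counts there do not measure that spread.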
